A study of Canis lupus familiaris with 14 samples.

Results

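MYC, its paralogs MYCN and MYCL, and 7 genes whose proteins pair with them or compete with them (MAX, MLX, MXI1, MXD1, MXD4, MNT and MGA) were followed in lymph nodes of dogs. The members were all probe sets of the GeneChip Canine Genome V2.0 Array that carried exactly 1 of the 10 symbols. This gave 18 probe sets for 10 genes, out of 29254 probe sets and 15115 genes with a single symbol. MAX, MLX and MXI1 had 3 probe sets each, MGA and MYCN had 2 each, and the others had 1. The lymphoma samples were fine needle aspirates of companion dogs of several breeds, seen at clinics coded FS, RB and NE before an investigational drug was given, 7 labelled B-cell lymphoma (RB03, RB07, RB10, RB16, NE41, NE42 and FS21) and 3 labelled T-cell lymphoma (NE45, FS22 and FS25). FS21, RB07, FS22 and FS25 had relapsed after earlier treatment, and the other 6 were treatment naive. The 4 normal nodes, also sampled by fine needle aspirate, came from 3 Beagles of 1 colony (63, 2970, and the nodes 3024l and 3024r of 1 dog). Disease, breed and source thus cannot be told apart, except that FS22 was also a Beagle. Clustering of the expression profiles in the study placed FS21, NE41, NE42, RB03, RB16 and FS22 together (class E-J) and RB07, RB10, FS25 and NE45 together (class K-N).

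MYC is a transcription factor that binds DNA only as a dimer with MAX, and these dimers drive genes of ribosome assembly, metabolism and cell growth. MXD1, MXI1, MXD4 and MNT use the same partner and the same DNA sites but recruit corepressors, and MGA combines a domain that pairs with MAX and a T-box domain in a single protein, whereas MLX serves as the partner of a parallel branch that includes MNT and MXD proteins. In normal lymphocytes MYC is switched on by activation, and in lymphomas of several species its gene is a recurrent target of activation.

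A value is the log2 of the MAS 5.0 signal, an intensity that the authors scaled to the same trimmed mean on every array, and a gene's value is the mean over its probe sets. Median signals were between 85.5 and 131 per array, and between 47.2% and 55.7% of the probe sets had a signal of at least 100, below which a signal is called dim here. Array 3024l stood apart by a GAPDH 3′ to 5′ signal ratio of 23.2, against 3.30 to 8.94 on the other arrays, a sign of its RNA or amplification quality. The markers of B and T cells went against 3 labels. RB07 and RB10, labelled B-cell, had mean log2 signals of 11.2 over 10 T-cell markers, as had FS25 and NE45 with 11.5, whereas FS22, labelled T-cell, had 7.68, within the 6.89 to 8.10 of class E-J. The normal nodes lay between, at 9.20 to 10.6. Over 7 B-cell markers, class K-N had 4.09 to 7.23, class E-J had 8.95 to 10.5 and the normal nodes had 8.25 to 9.23. MS4A1 (CD20) did not follow this order on every array, with 4.90 in FS22, 10.40 in RB10 and 10.89 in NE45, and it was dim in RB07 (2.89) and FS25 (6.48), as was CD79A in FS25 (2.55). In a bulk aspirate, fewer cells of a type and less RNA per cell cannot be told apart.

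MYC had higher signals in nearly every lymphoma than in the normal nodes, a difference that passed the test over all genes only in the smaller of the comparisons with normal nodes given below. Its log2 signal was 12.44 in FS21, 11.73 in NE41, 12.21 in NE42, 11.91 in RB03, 12.29 in RB16 and 11.61 in FS22. In class K-N it was 11.84 in RB07, 12.16 in RB10, 11.09 in FS25 and 11.53 in NE45, and in the normal nodes 10.93 in 63, 11.27 in 2970, 10.17 in 3024l and 11.20 in 3024r. FS21 was the highest array and 3024l the lowest, and 9 of the 10 lymphomas lay above every normal node, the exception being FS25. Class E-J had a mean of 12.03 ± 0.33 (SD, n = 6), class K-N of 11.65 ± 0.46 (SD, n = 4) and the normal nodes of 10.89 ± 0.50 (SD, n = 4), so that class E-J lay 1.14 above normal (2.21-fold) with no overlap and class K-N 0.76 above normal (1.70-fold) with overlap. Without 3024l these differences were 0.90 and 0.52. Between the classes the ranges overlapped, with class K-N 0.38 lower on the log2 scale than class E-J. No test is given between classes or between a class and the normal nodes, since the classes were drawn from expression profiles of the same RNAs. Of all 9400 genes bright enough over the 14 arrays, 7.26% lay higher in class E-J than in every normal node.

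The paralogs were dim in nearly all lymphomas, and MYCL was dim in the normal nodes too. MYCN, which drives tumours of nerve cell precursors in humans, had 2 probe sets, numbered here and in the plot of probe sets in the order of their identifiers, and the first was above a signal of 100 in every normal node. Its log2 signal there was 7.77 in 63, 8.59 in 2970, 7.38 in 3024l and 8.42 in 3024r. Among the lymphomas it was 7.50 in NE41, and the other 9 were dim, at 1.95 to 6.62. NE41 and 3024l overlapped, and in class K-N, where all 4 arrays were dim, the signal was at least 2.64-fold lower than in the normal nodes, with dim signals raised to 100. The second probe set was dim in every lymphoma and bright only in 3024r, at 7.25. MYCL, the paralog first found in small cell lung cancer in humans, was dim on all arrays but NE41, which had 6.70, against 5.83 to 6.51 in the normal nodes, and no fold is given.

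**Figure D1:**
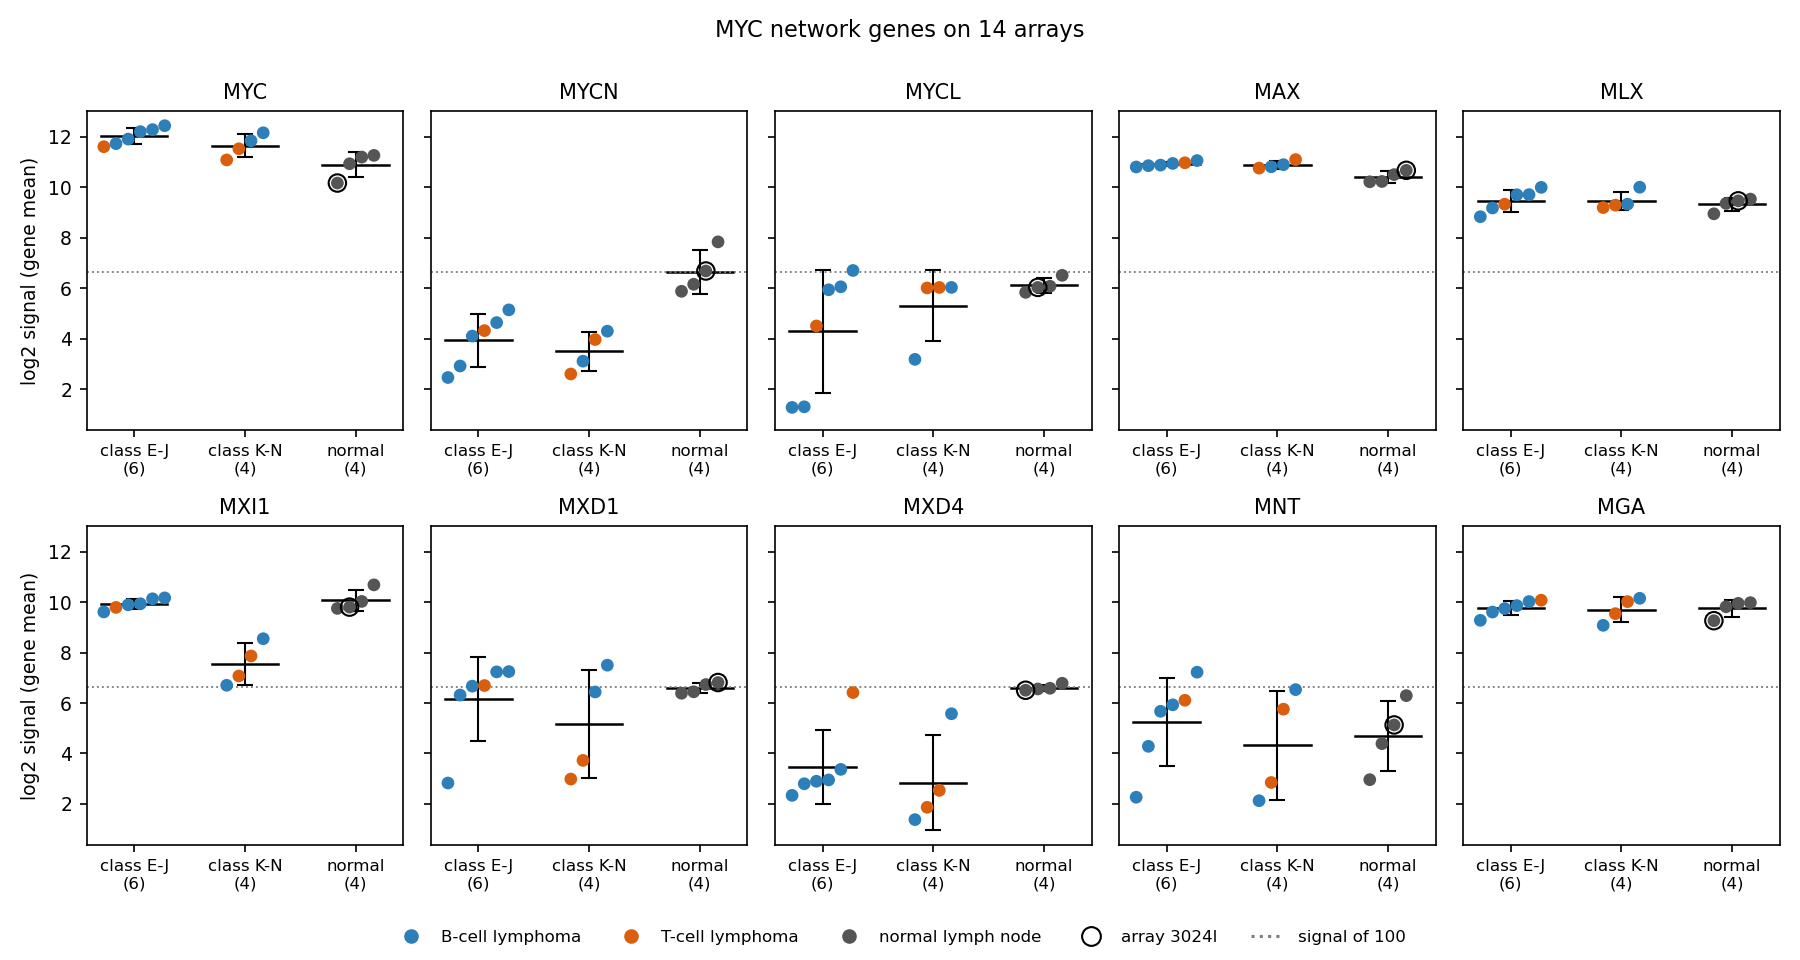
Log2 signal (gene mean, y axis) of the 10 MYC network genes on 14 arrays, by class E-J, class K-N and normal node (x axis), with points coloured by label, horizontal bars for means, whiskers for SD, a ring around 3024l and a dotted line at a signal of 100. MYC and MAX points of the lymphomas sit above the normal nodes except MYC in FS25 (11.09), MXI1 points of class K-N (6.70 to 8.55) sit below all others, and MYCL, MNT and MXD4 points lie mostly under the dotted line.

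MAX, the shared partner, was slightly higher in every lymphoma than in every normal node. In class E-J its log2 signal was 10.81 at the lowest (RB16), 10.91 at the median and 11.06 at the highest (RB03). In class K-N it was 10.81 in RB07, 10.90 in RB10, 10.76 in FS25 and 11.10 in NE45, and in the normal nodes 10.50 in 63, 10.23 in 2970, 10.67 in 3024l and 10.22 in 3024r. The 10 lymphomas thus spanned a narrow range that began just above 3024l, the highest normal node. The differences from normal were 0.51 for class E-J (1.43-fold) and 0.49 for class K-N (1.40-fold), and 0.60 and 0.58 without 3024l. No overlap upwards from the normal nodes was found for 7.26% of all genes in class E-J and for 6.93% in class K-N.

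The probe sets of MAX differed in how cleanly they separated the samples. On the first, in the order of their identifiers, the lymphomas had 13.55 to 14.16 and the normal nodes 12.86 to 13.48, with no overlap. On the third the lymphomas had 7.14 to 7.69, above 63, 2970 and 3024r (6.43 to 6.76) but below 3024l (8.53). On the second the ranges overlapped, with 10.91 to 11.92 in the lymphomas and 10.05 to 11.41 in the normal nodes.

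MLX, the partner of the parallel branch, did not separate the samples. Its log2 signal was 9.46 ± 0.42 in class E-J (SD, n = 6), 9.46 ± 0.37 in class K-N (SD, n = 4) and 9.33 ± 0.26 in the normal nodes (SD, n = 4), and these ranges overlapped. FS21 and RB10 were the highest, both at 10.00, and NE42 was the lowest, at 8.83.

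MXI1, which encodes a MAX partner of the repressor branch, showed the clearest pattern among the members, and it followed the classes and not the labels. In class K-N its log2 signal was 8.55 in RB07, 6.70 in RB10, 7.87 in FS25 and 7.07 in NE45. In class E-J it was 9.90 in FS21, 10.17 in NE41, 10.14 in NE42, 9.61 in RB03, 9.94 in RB16 and 9.79 in FS22, and in the normal nodes 9.75 in 63, 10.03 in 2970, 9.81 in 3024l and 10.69 in 3024r. Every array of class K-N, whether labelled B-cell or T-cell, lay below all the other 10 arrays, whereas class E-J and the normal nodes overlapped. The mean of class K-N was 7.55 ± 0.83 (SD, n = 4), which was 2.38 lower on the log2 scale than that of class E-J (5.19-fold lower) and 2.52 lower than that of the normal nodes (5.73-fold lower, and 6.09-fold lower without 3024l). Class K-N lay wholly below class E-J for 6.26% of the 9400 genes and wholly below the normal nodes for 9.12%. Class E-J lay 0.14 below the normal nodes, within the spread of either.

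The same order stood on each of the 3 probe sets of MXI1. On the first class K-N had 6.78 to 9.30, class E-J 9.79 to 10.99 and the normal nodes 10.44 to 11.84. On the second class K-N had 6.12 to 7.46, with RB10 and FS25 dim, class E-J had 8.10 to 8.98 and the normal nodes had 8.16 to 8.95. On the third class K-N had 6.83 to 9.05, class E-J 10.29 to 11.15 and the normal nodes 10.38 to 11.28. All 4 arrays of class K-N below all 10 others was found for 1.89% of the 9400 genes and for 1.55% of the 19592 probe sets bright enough to count, and no other member had this order. The classes were clustered from these profiles, so this is a description with no test.

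Several measured properties moved with MXI1. The T-cell markers were higher and the B-cell markers lower in class K-N than in either other set, by the values given above. The normal nodes lay between the classes in T-cell markers and had MXI1 in the range of class E-J and above. Of the 4 dogs of class K-N 3 were Boxers and of class E-J only NE41 was a Boxer mix, and the relapsed dogs were 2 in each class. Class K-N held 2 RB dogs, 1 FS dog and 1 NE dog, and class E-J held 2 from each clinic. The part of cell type or breed in the level of MXI1 was not tested.

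**Figure D2:**
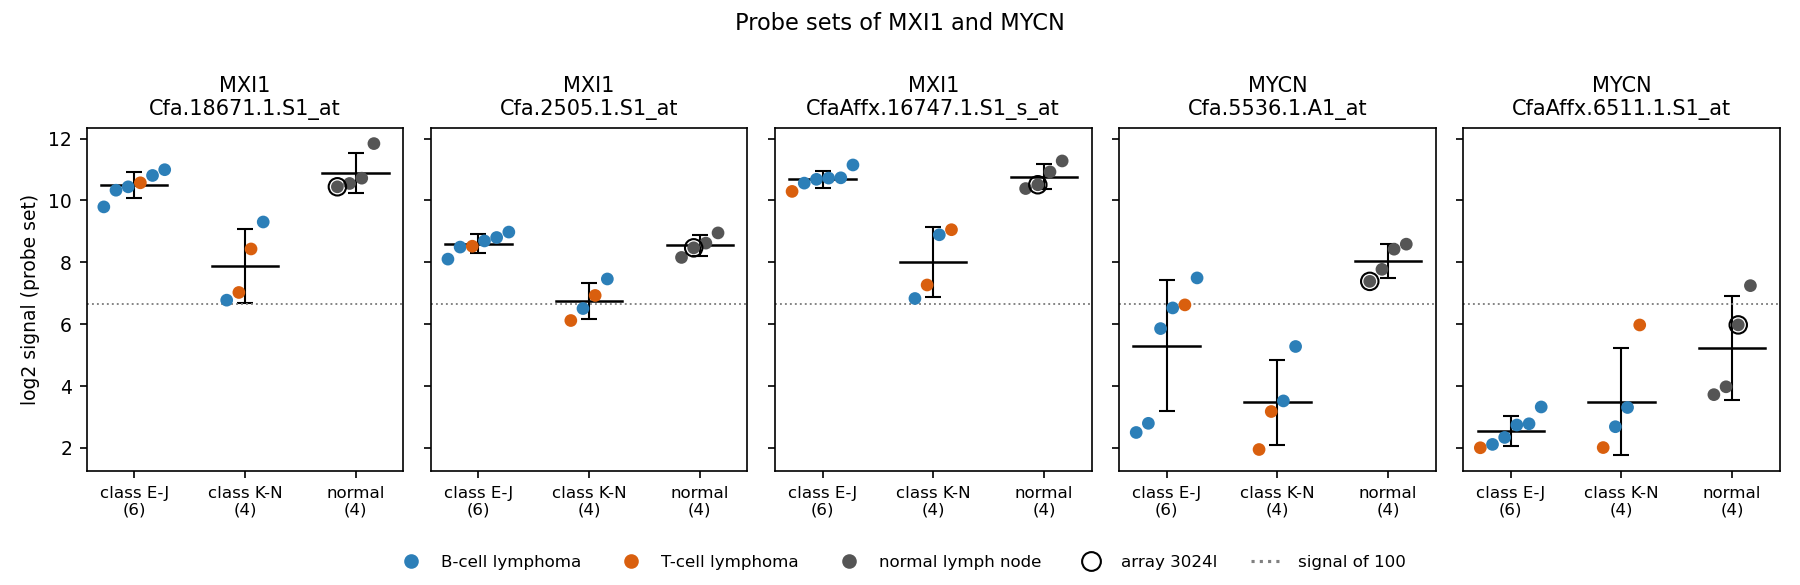
Log2 signal (y axis) of the 3 probe sets of MXI1 and the 2 of MYCN on each array, by class E-J, class K-N and normal node (x axis), in the order of their identifiers, with bars for means, whiskers for SD, a ring around 3024l and a dotted line at a signal of 100. On each MXI1 probe set the 4 points of class K-N lie below the 10 others, and on the first probe set of MYCN the normal nodes lie at 7.38 to 8.59 with 9 of 10 lymphomas under the dotted line.

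The other repressors were dim or unequal between dogs. MXD1, a MAX partner that rises as cells mature, had a log2 signal in class E-J of 2.83 at the lowest (RB03), 6.68 at the median and 7.25 at the highest (NE42). In class K-N it was 7.50 in RB07, 6.44 in RB10, 2.99 in FS25 and 3.73 in NE45, against 6.39 to 6.81 in the normal nodes. RB03, FS25 and NE45 were far below the rest, but with dim signals raised to 100 the mean of class K-N lay 0.15 above that of the normal nodes in place of 1.43 below. MXD4, of the same family, was dim in all 10 lymphomas and in 3 of the 4 normal nodes, with 6.79 in 63. MNT, a repressor that many tissues make at all times, was dim in every normal node and bright only in RB03, at 7.22. No fold is given for MXD4 or MNT.

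MGA, the largest of the network's proteins, did not separate the samples. Its log2 signal was 9.77 ± 0.29 in class E-J (SD, n = 6), 9.70 ± 0.49 in class K-N (SD, n = 4) and 9.76 ± 0.33 in the normal nodes (SD, n = 4). RB10 was the highest, at 10.15, and RB07 the lowest, at 9.08, so both ends of the range were dogs of 1 class.

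The question whether lymphoma nodes differed from normal nodes was asked of all 10 lymphomas and the 3 normal dogs (the mean of 3024l and 3024r standing for their dog), in a limma fit over 9216 genes. Of the 10 members 6 were bright enough to be tested (MYC, MAX, MLX, MXI1, MXD1 and MGA), and none of them passed an adjusted p of 0.05, against 337 of all genes (3.66%, with 1.09% higher and 2.57% lower). At an unadjusted p under 0.05 the count was 2 of the 6, against 18.6% of all genes. MYC averaged 11.88 ± 0.41 in lymphomas (SD, n = 10) and 10.96 ± 0.29 in normal dogs (SD, n = 3), a difference of 0.92 (SE 0.29, limma adjusted p = 0.0934) and a 2-sided exact permutation p of 0.00699. MAX averaged 10.91 ± 0.11 in lymphomas and 10.39 ± 0.14 in normal dogs, a difference of 0.52 (SE 0.18, limma adjusted p = 0.132), and its exact permutation p of 0.0035 was the smallest that the 286 assignments allow. The 6 exact p-values of the members are not adjusted. MAX did not overlap between the groups, as held upwards for 2.48% of all genes, and none of the 6 lay wholly lower in lymphomas, as 5.15% of all genes did. MXI1 had a difference of -1.04 (SE 0.73, limma adjusted p = 0.479), and those of MXD1, MGA and MLX were -0.77 (SE 1.00), -0.06 (SE 0.26) and 0.19 (SE 0.27). With 3024r alone for its dog, MYC had a difference of 0.75 (limma adjusted p = 0.143) and MAX of 0.59 (limma adjusted p = 0.0704). With dim signals raised to 100, both passed, at limma adjusted p = 0.0327 for MYC and 0.0274 for MAX.

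MYC passed the threshold in the smaller comparison that the study used for B-cell lymphoma, 4 lymphomas (NE42, RB16, RB03 and FS21) against the nodes 63, 2970 and 3024r. It averaged 12.21 ± 0.22 in those lymphomas (SD, n = 4) and 11.13 ± 0.17 in those normals (SD, n = 3), a rise of 1.08 (SE 0.23, 2.12-fold, limma adjusted p = 0.0290). All 4 lymphomas lay above all 3 normals, and the exact permutation p of 0.0286 was the smallest that 35 assignments allow. MYC was the only member called out of 6 tested, against 902 of 8295 genes (10.9%), and 2 of the 6 had an unadjusted p under 0.05 in limma, against 30.0% of all genes. MAX also did not overlap, as held upwards for 13.7% of all genes, and its difference was 0.58 (SE 0.21, limma adjusted p = 0.109). MXI1 had a difference of -0.26 (SE 0.29, not past the threshold), and none of MXD1, MGA and MLX passed. The 4 lymphomas were chosen in part on their expression profiles. The call of MYC was lost without any 1 of 63, 2970, 3024r, FS21, NE42 and RB16, at limma adjusted p = 0.0506 to 0.123, and with 3024l in place of 3024r, at limma adjusted p = 0.0658, and it was kept without RB03.

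Between the labels, MYC was higher in B-cell than in T-cell lymphoma without passing the test over all genes. It was 11.73 at the lowest, 12.16 at the median and 12.44 at the highest in the 7 B-cell lymphomas, against 11.61 in FS22, 11.09 in FS25 and 11.53 in NE45. The labels did not overlap, as held upwards for 0.432% of 8567 genes. The difference was 0.68 (SE 0.25, limma adjusted p = 0.956), with an exact permutation p of 0.00833, the smallest that 120 assignments allow, unadjusted over the 6 members. Within the 2 clinics that held both labels the difference was 1.10 in FS (1 against 2 dogs) and 0.44 in NE (2 against 1). Its sign there was fixed by the lack of overlap between the labels and adds no support. None of the 6 members and none of the 8567 genes passed in limma, and MYC alone of the members and 313 genes (3.65%) had an unadjusted p under 0.05. MXI1 averaged 9.29 ± 1.27 in B-cell lymphoma (SD, n = 7) and 8.25 ± 1.40 in T-cell lymphoma (SD, n = 3), a difference of 1.04 (SE 0.81, limma adjusted p = 0.956), with class K-N arrays in both groups. Without RB07, RB10 and FS22, whose markers went against their labels, MYC had a difference of 0.81 (SE 0.31, limma adjusted p = 0.218) and MXI1 of 2.48, but the 5 B-cell and 2 T-cell lymphomas that remain are all of class E-J and all of class K-N, so that the value for MXI1 repeats the order of the classes.

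**Figure D3:**
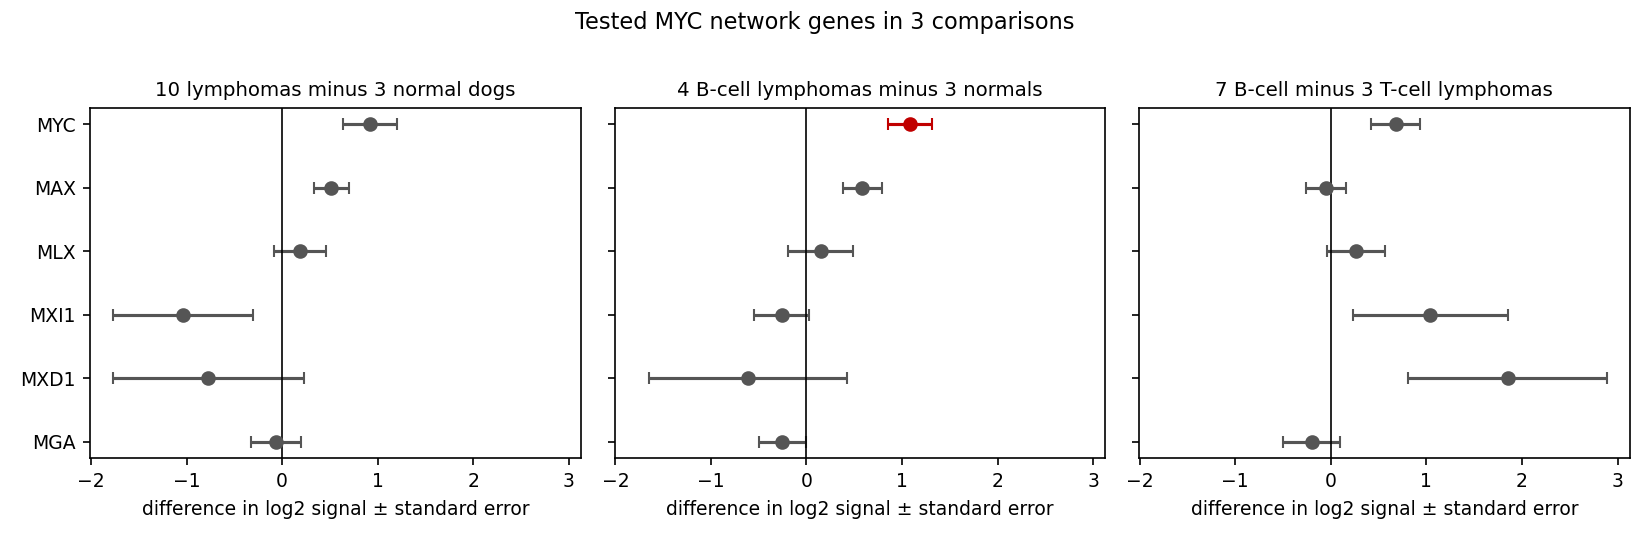
Difference in log2 signal (x axis, points) with its standard error (bars) from limma for the 6 tested MYC network genes (y axis), in the 10 lymphomas minus the 3 normal dogs, the 4 B-cell lymphomas of the study's set minus 3 normals, and B-cell minus T-cell lymphoma. Red marks an adjusted p under 0.05, which only MYC had, in the B-cell set (1.08), while the bars of MXI1 and MXD1 are the longest in the outer panels.

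Genes that MYC is known to induce had higher levels in class E-J than in class K-N or the normal nodes. Of 46 such genes listed from textbook knowledge, among them nucleolar proteins, enzymes of nucleotide synthesis and chaperones, 39 were on the array and 37 were bright enough. In class E-J the mean of 35 of the 37 lay above that of the normal nodes, with a median difference of 0.73, beside 52.4% of all genes above normal and a median of 0.05. In class K-N 20 of the 37 lay above the normal nodes, with a median difference of 0.05, beside 48.9% of all genes and a median of -0.02. Only 5 of the 37 had a higher mean in class K-N than in class E-J, with a median difference of -0.58 beside -0.05 for all genes, and as for the members no test is given between classes. The summed signal of the list was 152885 to 220458 in class E-J, 98158 to 124089 in class K-N and 90606 to 100333 in the normal nodes, so class E-J did not overlap with either. Of the 37, 13 lay higher in every array of class E-J than in any normal node and 6 in every array of class K-N, beside the 7.26% and 6.93% of all genes given above. Markers of cell types also differed between these sets. The median difference of class E-J from the normal nodes was 1.19 over 6 B-cell markers, -2.36 over 10 T-cell markers, -2.85 over 11 myeloid markers and -2.18 over 7 stromal markers. That of class K-N from class E-J was -4.04 over the B-cell and 3.66 over the T-cell markers, and their part in the levels of the induced genes was not tested.

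Named genes show the spread of these patterns. NPM1, a nucleolar protein that escorts ribosomal subunits, averaged 12.15 ± 0.65 in class E-J (SD, n = 6), 10.40 ± 0.55 in class K-N (SD, n = 4) and 10.62 ± 0.71 in the normal nodes (SD, n = 4). ODC1, the first enzyme of polyamine synthesis, averaged 13.65 ± 0.41 in class E-J, 11.69 ± 0.40 in class K-N and 12.91 ± 0.19 in the normal nodes, and class K-N thus had the lowest mean. CCND2, a cyclin that carries cells into replication, averaged 10.74 ± 0.43 in class E-J, 11.44 ± 1.00 in class K-N and 10.13 ± 0.41 in the normal nodes. These 3 were chosen after their values were seen. The 12 genes of dividing cells had median differences from normal of 1.02 in class E-J and 1.64 in class K-N. The part of cell division in the levels of the induced genes was not tested.

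In the tests, none of the 37 induced genes passed in the 10 lymphomas against normal, where the median difference was 0.59, beside -0.02 for all genes. The count was 3 with log2(signal + 50) or linear means, 4 with the brightest probe set of each gene or the methods' t-test (the test named in the study's methods) and 7 with signals raised to 100. The smallest p-values there belonged to HSPE1 and HSPD1, the mitochondrial chaperone pair, and to AIMP2, a scaffold of tRNA synthetases, and PAICS, an enzyme of purine synthesis. HSPE1 averaged 14.89 ± 0.35 in lymphomas and 13.99 ± 0.30 in normal dogs (limma adjusted p = 0.0767), and HSPD1 averaged 13.94 ± 0.43 in lymphomas and 12.98 ± 0.16 in normal dogs (limma adjusted p = 0.0812). AIMP2 and PAICS had differences of 0.77 (SE 0.23) and 0.99 (SE 0.31). All 4 genes lay higher in every lymphoma than in every normal dog, as did 2.48% of all genes. They were picked by their p-values in this same comparison, so their lack of overlap is no separate support. In the B-cell set against its normals, 8 of the 37 rose and none fell, beside 3.48% of all genes that rose, with a median of 0.61 beside -0.06. These were NME1, HSPE1, HSPD1, NPM1, NOLC1, IMPDH2, NOP58 and NOP56, of which NPM1 rose the most, to 12.10 ± 0.78 in the lymphomas (SD, n = 4), against 10.26 ± 0.12 in the normals (SD, n = 3, limma adjusted p = 0.0368). Of the 8, none passed without 63, 2970 or 3024r or with 3024l in place of 3024r, and 3, 1 and 5 induced genes passed without FS21, NE42 and RB16, with 9 without RB03.

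**Figure D4:**
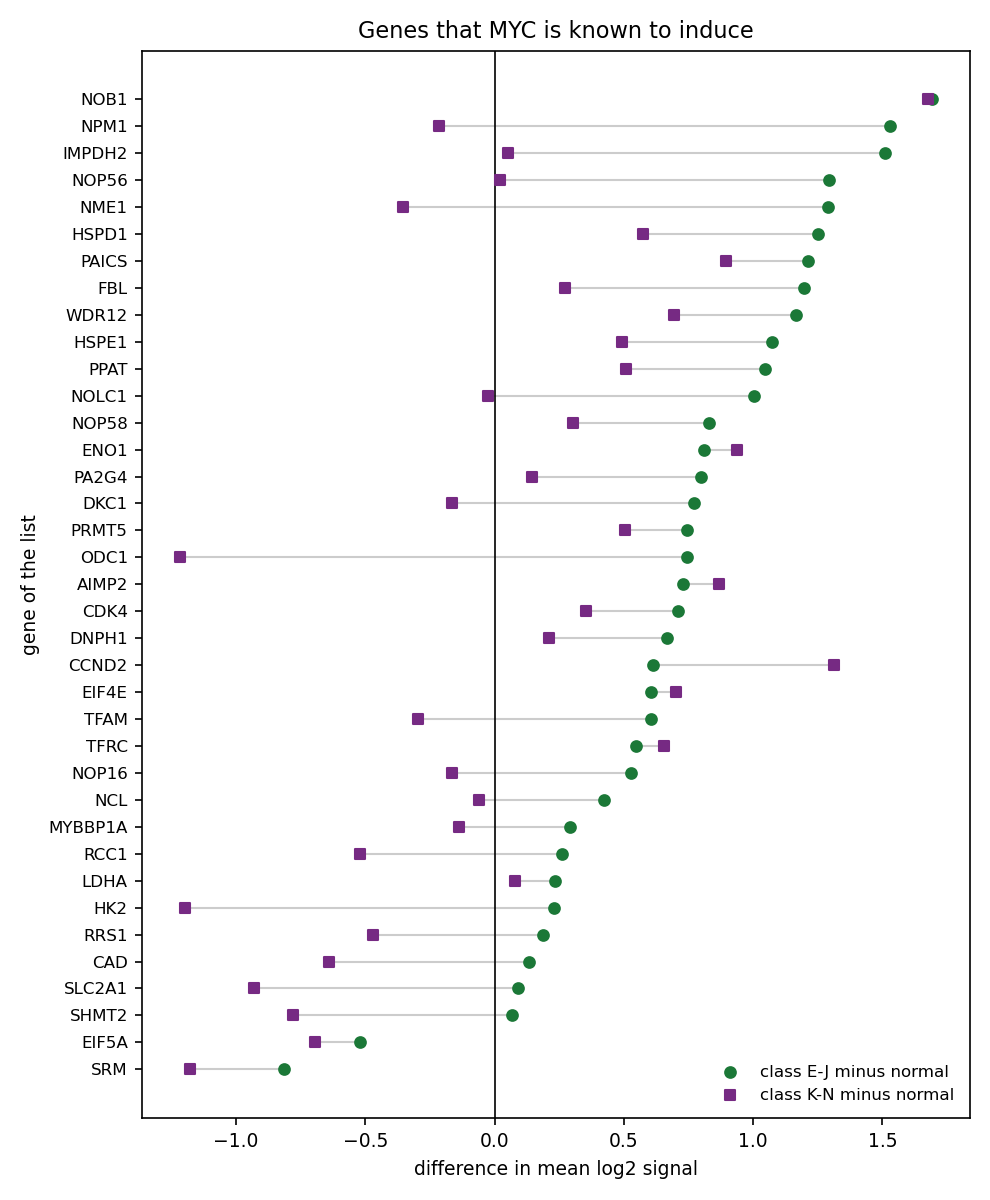
Difference in mean log2 signal from the 4 normal nodes (x axis) for each of 37 genes that MYC is known to induce (y axis), with circles for class E-J and squares for class K-N, joined by a line. Circles lie right of 0 for all but EIF5A and SRM (35 of 37), and squares lie on both sides of 0 (20 of 37 to the right), with ODC1 at -1.22.

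Only a few genes that MYC is known to repress were bright enough to be tested. Of 10 listed, 7 were on the array and 4 were tested (the cell cycle inhibitors CDKN1A and CDKN1B, the stress gene NDRG1 and the matrix protein THBS1). All 4 had negative differences in the 10 lymphomas, with a median of -1.53 beside -0.02 for all genes, and none passed the threshold. The filter can be met by the 3 normal dogs alone, which favours genes that are lower in lymphomas. In class E-J the means of THBS1 (6.19) and NDRG1 (6.55) were dim, so the size of the median is uncertain. It was smaller in size with dim signals raised to 100, and it stayed negative there and with no filter over the 7 genes. In the B-cell set THBS1 fell, to 6.13 ± 0.81 in the lymphomas (SD, n = 4), against 8.58 ± 0.82 in the normals (SD, n = 3, limma adjusted p = 0.0325), and the other 3 did not pass. The mean of THBS1 in those lymphomas was dim, so the size of its fall is uncertain. Of all genes 7.39% fell there. The call of THBS1 was lost with no filter, the filter at 200, the brightest probe set, the methods' t-test, 3024l in place of 3024r or all 14 arrays in 1 fit, and without any 1 of 63, 2970, 3024r, NE42 and RB16. THBS1 is also made by stromal and myeloid cells, and those markers moved the same way. In the 10 lymphomas 7 of 11 myeloid, 3 of 7 stromal and 3 of 4 endothelial markers fell, and none rose, beside 2.57% of all genes that fell. In the B-cell set 8 of 11, 5 of 7 and 4 of 4 of these markers fell, beside the 7.39% given above. The summed signal of the myeloid markers was 8405 to 41938 in the lymphomas and 33933 to 74999 in the normal nodes, and that of the stromal markers 528 to 4911 in the lymphomas and 5584 to 7249 in the normal nodes. Their part in the value of THBS1 was not tested.

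Few genes for proteins that act with or on the network passed the test. Of 10 cofactors of MYC tested, none passed in the 10 lymphomas, where 7 had positive differences, with a median of 0.47 beside -0.02 for all genes. WDR5, a subunit of chromatin complexes, had the smallest p there with a difference of 1.70 (SE 0.62, limma adjusted p = 0.149), which rested on 1 array. Its log2 signal was 1.46 in 3024l, against 8.99 to 9.21 in the other normal nodes, and with 3024r alone for that dog the difference was 0.42 (SE 0.27, limma adjusted p = 0.400). In the B-cell set 1 cofactor rose, ACTL6A, an actin-like subunit of remodelling complexes, by 1.57 (SE 0.37, limma adjusted p = 0.0388). Its call was lost with no filter, log2(signal + 50), signals raised to 100, linear means, the brightest probe set, centred arrays, the methods' t-test, 3024l in place of 3024r or all 14 arrays in 1 fit, and without any 1 dog but RB03. Of 9 genes for the turnover and signalling of MYC none passed in any comparison, and AURKA, a mitotic kinase that stabilises MYCN in human cells, had a difference of 1.22 (SE 0.38, limma adjusted p = 0.0946) in the 10 lymphomas. Of 5 corepressors of the MXD and MNT proteins none passed either, with SAP30 at 0.94 (SE 0.33, limma adjusted p = 0.133). MLXIP, the partner of MLX that senses glucose products, was the only one of 3 further network genes bright enough and had a difference of -0.29 (SE 0.38). In the same lymphomas 5 of 12 genes of dividing cells rose, beside 1.09% of all genes. Among them was BUB1B, a mitotic checkpoint kinase, at 2.28 (SE 0.42, limma adjusted p = 0.0151). None of the 12 passed without 63 or 2970.

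The genes whose levels were most like that of MYC over the 13 dogs, by Pearson correlation over 9215 genes, were LOC608797 (r = 0.96), NDUFB4 and NDUFA9, subunits of respiratory complex I (0.92 and 0.90), UBE4A, a ubiquitin ligase (0.88), and EMG1, an enzyme of ribosome assembly (0.87). The most opposite were TBX1, a T-box factor (-0.89), ATP6V0C, a subunit of the vacuolar proton pump (-0.88), and CLIC2, GLIPR1 and ANXA2 (all -0.87). Over the 10 lymphomas alone these correlations were 0.77 to 0.96 and -0.76 to -0.95. Those 10 dogs are among the 13 on which the genes were picked, so these values are no separate support. The dogs share disease and source, and the correlations are a description without a test.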

How the data were processed

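The deposited intensity values are linear MAS 5.0 signals. The authors used the WT-Ovation Pico kit for amplification and set the trimmed mean of every array to 500, and per the labels each of the 14 arrays holds 1 node. The log2 of each signal was used as it stood. Probe sets with exactly 1 symbol in the annotation table of the array were averaged into genes, and 9 of the 10 member identifiers matched the RefSeq table (MXD4 did not). Genes that reached a signal of 100 in 3 or more dogs of a comparison were tested with limma 3.58.1 in R 4.3.3, with Benjamini-Hochberg adjustment over all of them and a threshold of 0.05. The filter, scaling, pseudocount, floor, gene summary, test and each dog were varied 1 at a time. Exact permutation tests were run on single members. Figures were drawn with matplotlib 3.10.9. Classes follow the letters of the study's clustering and carry no test. Named genes were all members, the 5 genes most like and most unlike MYC, and up to 4 of each list with the smallest p. The induced genes that passed in the B-cell set, NPM1, ODC1 and CCND2 were named after their values were seen. The members and lists were chosen with earlier results of these data known. The number of arrays limits the precision. No genome coordinates or sequences were used.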

Additional observations from a re-analysis of the deposited data

Results flagged for a closer look

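In 5 cases of the 50 combinations of member and group examined, 1 array lay far from the others of its group by Dixon's criterion, which chance meets in about 1 of 20. MXD1 in RB03 had a log2 signal of 2.83, against 6.32 in the nearest array, both among the 7 B-cell lymphomas and among class E-J, and both are dim. MXD4 in FS22 had 6.42, against 3.37 in the nearest array of class E-J, and both are dim. MYCL in RB07 had 3.18, against 6.01 in the nearest array of class K-N, and both are dim. MLX in RB10 had 10.00, against 9.33 in the nearest array of class K-N.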

How the results depend on the processing

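With few dogs a group, the calls moved with the processing more than the differences did, and the causes were not tested. Members called in the 10 lymphomas against normal were 0, but 1 with log2(signal + 50) (MYC), 2 with signals raised to at least 100 (MYC and MAX) and 1 with the mean of linear signals (MYCN), and 0 without each dog in turn. All genes called there were 337, but 112 with no filter, 715 with log2(signal + 50), 918 with raised signals, 561 with linear means, 884 with the methods' t-test, 197 with 3024l only and 10 to 437 without each dog (10 without 2970). In the B-cell set the 1 member called became 0 with arrays centred on their median, the methods' t-test or 3024l in place of 3024r, 2 with linear means (MYC and MYCN) and 0 to 1 without each dog. Genes called there were 902, but 193 with no filter, 1613 with log2(signal + 50), 1807 with raised signals, 1424 with linear means, 8 with the methods' t-test, 232 with 3024l, 419 with all 14 arrays in 1 fit and 15 to 1207 without each dog. Without a filter the member called was MXD4 in place of MYC, whose limma adjusted p was 0.114. Where called, MYCN and MXD4 were lower in the lymphomas, a direction that adds no support. With linear means MYCN was bright enough only through the normal dogs, so its direction was fixed by the filter. MXD4, called only with no filter, was dim in all 10 lymphomas and in 3 normal nodes. Of the genes induced by MYC, 8 rose in the B-cell set, but 0 with no filter or the methods' t-test, 2 with all 14 arrays in 1 fit, 4 with centred arrays, 7 with quantile normalization, 9 with the brightest probe set, 10 with the filter at 200, 11 with linear means and 12 with log2(signal + 50) or raised signals. Between B-cell and T-cell lymphoma 0 members and 0 genes were called, with 0 to 1 genes and 0 members without each dog, and 1 member (MXI1) and 267 genes without RB07, RB10 and FS22, an alternative chosen after seeing the data. Quantile normalization moved the share of rises among genes called to 39.9% in place of 29.7% in the 10 lymphomas, and to 43.9% in place of 32.0% in the B-cell set, and with no filter it was 15.2% and 16.6%.

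Differences that changed sign were small or of dim genes. MGA in the 10 lymphomas was 0.0317 with centred arrays, 0.12 on its brightest probe set, 0.0516 with 3024l only and -0.16 to 0.0261 without each dog. MXD1 with raised signals was 0.17 in the 10 lymphomas and 0.27 in the B-cell set, where it was -0.75 to 0.41 without each dog. MAX between B-cell and T-cell lymphoma was 0.0048 with linear means and -0.14 to 0.0280 without each dog. In the B-cell set MLX was -0.0078 on its brightest probe set and -0.0413 to 0.35 without each dog, and MXI1 was 0.0330 with 3024l and -0.46 to 0.0041 without each dog. No paired analysis was possible because the labels give no numbers shared between groups that pair dogs.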
